A study of Mus musculus with 18 samples.

Results

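Striatal microglia that carry the Q175 allele were compared with and without Tyrobp. The comparison set 5 samples of genotype Q175;Tyrobp-KO, called double mutants here, against 5 samples of genotype Q175, which is 10 of the 18 samples of the series. All genes were examined, and the 398 genes tested within 15 Mb of Tyrobp on chromosome 7 were described apart, since sequence close to a targeted gene is inherited along with it. The remaining samples were 5 WT and 3 Tyrobp-KO samples, which show the same deletion without the Q175 allele and share no sample with the main comparison.

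The mice were adult and on the C57BL/6 strain, given as C57Bl6/J in the methods. Q175 mice are heterozygous for a human huntingtin exon with an expanded CAG repeat placed in the mouse Htt gene, and both groups compared here carried it. The double mutants were in addition homozygous for a Tyrobp null allele that is present in every cell of the animal, not in microglia alone. Microglia were pulled out of dissociated striatum with magnetic beads against CD11b, with 2 striata per sample in the labels and 1 in the methods. The Q175 group held 4 females and 1 male and the double mutants 2 females and 3 males, so sex and genotype were partly mixed. The methods describe the striata of each mouse as dissociated on their own, but no source ties each sample to an animal of its own, and where samples share one the p-values measure only the spread between these samples.

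TYROBP, also named DAP12, is a small transmembrane adaptor of myeloid and natural killer cells. It pairs with receptors that lack a signalling tail of their own, among them TREM2, and its cytoplasmic ITAM recruits the kinase SYK once a receptor is engaged. In mouse models of amyloid pathology TREM2 and TYROBP are known for the step from homeostatic microglia to disease-associated microglia (DAM), a state with high Apoe, Clec7a, Cst7, Lpl, Spp1 and Itgax.

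Tyrobp was reduced to a low residual level. Outside its neighbourhood 10 of the 24 called genes that fell were late DAM transcripts, by a list drawn up with earlier results of these data known. St8sia6, which is in no DAM list, and Spp1, Ch25h, Mmp12, Igf1, Cst7, Clec7a, Ccl3, Ccl4 and Lpl, which are in the late one, were lower in the double mutants, with log2 fold changes from -5.715 to -1.89. Each of these genes was also lower in Tyrobp-KO than in WT samples. None of the 30 homeostatic genes and 14 TYROBP receptors and paired adaptors tested, Trem2 included, passed the adjusted test. DESeq2 called only 0.227% of all genes tested, so this absence says little for lists of that size. At an unadjusted edgeR p under 0.05, 5 of the homeostatic genes and 3 of the receptors and adaptors were higher and none lower. Itgam and Siglech are in both counts, and the adaptor Hcst lies within 15 Mb of Tyrobp. A gene is called here where the false discovery rate (FDR) was under 0.1 over all 18059 genes tested, by edgeR's quasi-likelihood test or by DESeq2's Wald test, and "rose" and "fell" are used of called genes only. Values per sample are normalized counts, which are read counts scaled to a common library size.

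Libraries held 11260410 to 24011729 assigned reads in Q175 and 15188201 to 29771983 in the double mutants. Tyrobp (chr7:30413760-30417585, plus strand, GRCm38) had 4845, 4643, 3976, 5536 and 7149 normalized counts in the Q175 samples and 176.5, 279.7, 243.6, 264.8 and 244.9 in the double mutants. No sample stood between the groups. The log2 fold change was -4.45 ± 0.19 (SE), with an adjusted p of 2.46e-07 in edgeR, and in Tyrobp-KO against WT it was -4.10 ± 0.37. The deposited counts sum a gene over its exons and do not show which part of the transcript the remaining reads cover. All 20 microglial markers tested exceeded 100 normalized counts in every one of the 18 samples, and the list level, a geometric mean of normalized counts, was 8722 to 19330 in Q175 and 12480 to 18100 in the double mutants.

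**Figure D1:**
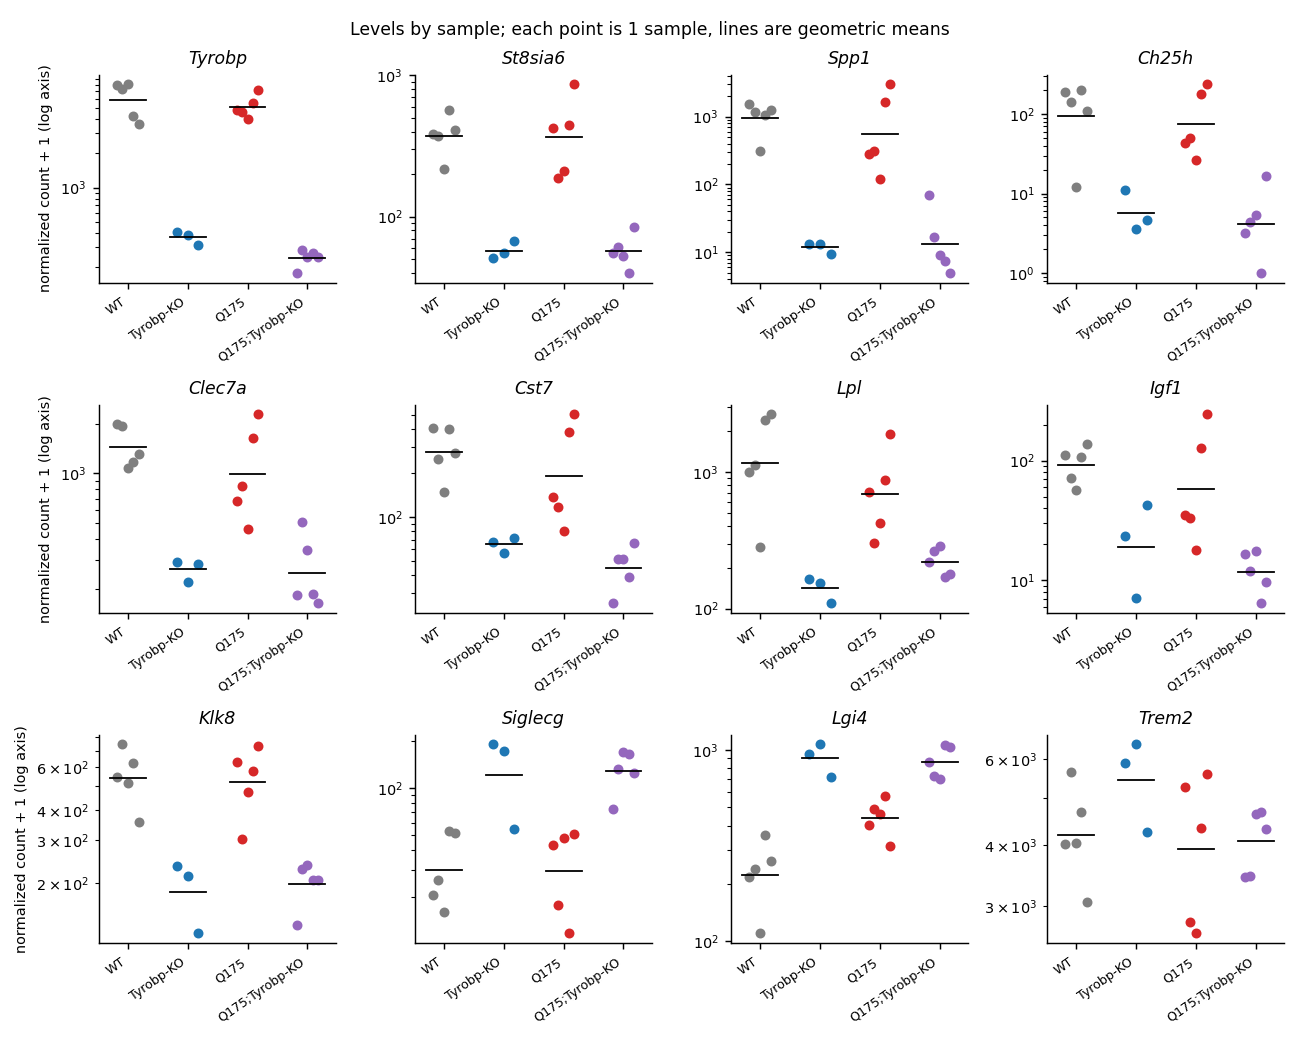
Normalized counts plus 1 on a log axis for 12 genes in the 4 genotypes; each point is 1 sample and each line a geometric mean. St8sia6 lies between 188 and 866 in Q175 and between 38.9 and 83.7 in the double mutants, whereas the 2 groups overlap for Trem2.

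edgeR called 2 genes, 0.0111% of those tested, both lower: Tyrobp and St8sia6. DESeq2 called 41 genes, 0.227% of those tested, with 12 higher (0.0664%) and 29 lower (0.161%), and both edgeR genes were among them. The DESeq2 count went to 583 without double mutant replicate 5, to 302 and 238 without Q175 replicates 9 and 17, and to 24 without double mutant replicate 13, and edgeR called 5 genes without Q175 replicate 9. At an unadjusted edgeR p under 0.05 there were 1446 genes (8.01%), of which 623 (3.45%) were higher and 823 (4.56%) lower. Scaling by total counts in place of edgeR's TMM factors turned that split to 1193 higher and 451 lower and moved the median of all genes from -0.05 to 0.08, so the sign of small shifts depends on the scaling. Gm42418 and Gm26917, noncoding genes that overlap ribosomal RNA sequence, took 15.4% to 29.5% of reads in Q175 (median 23.2%) and 12.7% to 24.2% in the double mutants (median 14.6%), and the part of this share in the differences was not tested. The count of 1446 ran from 588 without double mutant replicate 13 to 3192 without replicate 5. The groups did not overlap for 154 genes (0.853%), with the double mutants higher for 83 (0.46%) and lower for 71 (0.393%). Of the 41 called genes, 30 did not overlap between the groups, 1 was Tyrobp, 10 lay within 15 Mb of it and 30 lay elsewhere in the genome. Of those 30, 24 fell and 6 rose. With sex as a term DESeq2 called 17 of the 41, namely Tyrobp, 7 of the 10 neighbours, 9 of the 24 and none of the 6.

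St8sia6 encodes a sialyltransferase of the alpha-2,8 family, which adds sialic acid to sialic acid already on a glycan. It had 419, 188, 209, 445 and 866 normalized counts in Q175 and 54.7, 59.8, 52.0, 38.9 and 83.7 in the double mutants. The lowest Q175 sample stood above the highest double mutant. Its log2 fold change was -2.87 ± 0.39 (adjusted p = 0.0656 in edgeR and 4.55e-10 in DESeq2). The edgeR call was lost with sex as a term (adjusted p = 0.258), with a covariate for non-microglial content, scored from markers (0.229), in females alone (0.9998) and without any 1 of 7 of the 10 samples (0.138 to 0.330), with log2 fold changes from -3.05 to -2.47 throughout, while DESeq2 called it in each of its 12 alternative fits. In Tyrobp-KO against WT the gene was lower by -2.78 ± 0.32 on the log2 scale, with 217 to 570 normalized counts in WT and 50.1 to 65.8 in Tyrobp-KO.

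Of the 30 called genes away from Tyrobp, 23 matched a promoter in the RefSeq table for GRCm38.p6, 20 lower and 3 higher, and 4 promoters are printed to show the sequence at the start of the genes the comparison turns on. Each runs from 250 bases before the start site to 50 after it, written 5′ to 3′ on the gene's strand. Capitals mark GAGGAA or its reverse complement, a form of the site bound by PU.1, the transcription factor that defines the myeloid lineage. Other forms of that site were not searched. Where a gene has several start sites the one with the lowest coordinate is shown.
St8sia6, chr2:13793471-13793770, - strand: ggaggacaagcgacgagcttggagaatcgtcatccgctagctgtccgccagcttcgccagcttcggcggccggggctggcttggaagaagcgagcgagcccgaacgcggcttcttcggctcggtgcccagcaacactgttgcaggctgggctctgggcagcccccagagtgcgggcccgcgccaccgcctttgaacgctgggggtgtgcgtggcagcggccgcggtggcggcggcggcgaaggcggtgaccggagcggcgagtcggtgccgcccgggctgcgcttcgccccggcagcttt
Spp1, chr5:104434861-104435160, + strand: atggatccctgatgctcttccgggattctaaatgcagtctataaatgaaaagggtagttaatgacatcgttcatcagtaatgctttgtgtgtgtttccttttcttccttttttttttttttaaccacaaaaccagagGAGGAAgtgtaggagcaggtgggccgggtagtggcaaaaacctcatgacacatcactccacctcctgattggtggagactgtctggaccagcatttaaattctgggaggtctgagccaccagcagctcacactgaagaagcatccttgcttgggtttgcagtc
Clec7a, chr6:129472730-129473029, - strand: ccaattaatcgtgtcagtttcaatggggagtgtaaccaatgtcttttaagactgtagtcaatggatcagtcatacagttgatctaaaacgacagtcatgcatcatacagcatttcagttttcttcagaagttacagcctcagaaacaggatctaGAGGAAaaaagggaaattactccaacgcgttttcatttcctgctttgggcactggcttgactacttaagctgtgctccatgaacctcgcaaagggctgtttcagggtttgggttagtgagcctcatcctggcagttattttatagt
Cst7, chr2:150570165-150570464, + strand: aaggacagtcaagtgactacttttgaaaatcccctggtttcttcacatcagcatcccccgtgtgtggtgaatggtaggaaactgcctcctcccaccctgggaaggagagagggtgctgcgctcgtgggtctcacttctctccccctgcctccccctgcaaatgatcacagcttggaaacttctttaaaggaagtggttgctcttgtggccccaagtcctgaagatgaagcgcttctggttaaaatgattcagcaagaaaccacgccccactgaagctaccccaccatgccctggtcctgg

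Of these 4 promoters, GAGGAA was present once each in Spp1 and Clec7a and was absent from these windows in St8sia6 and Cst7. Over the lower genes 11 of 24 promoters (45.8%) held GAGGAA on either strand, over the higher genes 1 of 3, and over the table's 32851 promoters the share was 28.3%. TGANTCA, the AP-1 site, was in 3 of the 24 (12.5%), Cst7 and Igf1 among them, against 7.81% of all promoters. CACGTG, the E-box read by the MITF and TFE family, was in none of the 24, against 7.15% of all promoters. The motifs do not overlap in letters, and the counts describe the windows without a test.

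Of 31 genes listed for late DAM, 30 were tested. At an unadjusted edgeR p under 0.05, 19 were lower and none higher, which is 63.3% against 8.01% of all genes. DESeq2 called 10 of the 30, all lower, beside 0.161% of all genes tested that it called lower. The median log2 fold change was -0.80 against -0.05 over all genes tested. The groups did not overlap for 8 members, all lower, beside 0.393% of all genes that were lower without overlap. The list was drawn up with earlier results of these data known, so its count is not independent evidence of its direction. Of the 19, 13 were under 0.05 with sex as a term, 17 in females alone and 16 with a covariate for non-microglial content. Of the 11 called genes of the late and early lists, DESeq2 called 6 with sex as a term, which were Spp1, Ch25h, Clec7a, Cst7, Lpl and Ccl3. All 11 were lower in both sexes, but the log2 ratio of group means was smaller in size in males. Q175 replicate 9 was the only Q175 male. In females and in males the ratio was -2.97 and -0.41 for Clec7a, -3.07 and -0.60 for Igf1, and -5.12 and -3.40 for Spp1.

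Spp1, which encodes the secreted phosphoprotein osteopontin, had the largest log2 fold change among the called genes. Its Q175 values were 278, 310, 118, 1617 and 3010 normalized counts, and its double mutant values were 69.3, 16.01, 8.25, 6.48 and 3.95. The Q175 samples were spread widely, with replicates 14 and 17 highest, and double mutant replicate 5 stood above the others of its group. The log2 fold change was -5.715 ± 1.05 (DESeq2 adjusted p = 0.000115; edgeR 0.298), and -4.88 without Q175 replicate 17. WT samples held 309 to 1542 normalized counts and Tyrobp-KO samples 8.53 to 12.2.

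Ch25h makes 25-hydroxycholesterol from cholesterol. It had 42.2, 49.1, 25.2, 178 and 237 normalized counts in Q175 and 2.23, 3.37, 4.44, 0 and 15.8 in the double mutants, a log2 fold change of -4.26 ± 0.81 (DESeq2 adjusted p = 2.66e-05). Again Q175 replicates 14 and 17 were highest, and no double mutant reached the lowest Q175 sample. Lpl, a lipase that frees fatty acids from lipoproteins, had 720.0, 303, 426, 871 and 1914 normalized counts in Q175 and 220.1, 265, 289, 169 and 178.5 in the double mutants (-1.91 ± 0.40, DESeq2 adjusted p = 0.00193). Of the other genes of lipid uptake and storage, Cd36, a scavenger receptor for fatty acids and oxidized lipoprotein, was lower at an unadjusted p (-1.55 ± 0.44) but was not called. In all 6 of 26 genes in that list were lower and 1 higher at an unadjusted p under 0.05.

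Clec7a, which encodes the beta-glucan receptor dectin-1, had 675, 835, 457.5, 1636 and 2278 normalized counts in Q175 and 182, 506, 344, 185 and 163 in the double mutants. A single double mutant value, 506 in replicate 11, exceeded a single Q175 value, 457.5 in replicate 9, and both of these samples were male. The log2 fold change was -2.10 ± 0.44 (DESeq2 adjusted p = 0.00126). Cst7, an inhibitor of lysosomal cysteine proteases, had 136, 115, 79.3, 379 and 506 normalized counts in Q175 and 24.6, 50.5, 50.1, 37.8 and 65.6 in the double mutants (-2.40 ± 0.48, DESeq2 adjusted p = 0.000407). Its groups did not overlap.

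Other late DAM members encode secreted factors. Igf1, a growth factor, had 34.0, 32.2, 17.1, 128 and 244 normalized counts in Q175 and 15.6, 10.9, 16.5, 5.40 and 8.69 in the double mutants, so that the groups were close at the lowest Q175 sample. Its log2 fold change was -2.96 ± 0.68 (DESeq2 adjusted p = 0.00347) and -2.21 without Q175 replicate 17. Mmp12, the macrophage elastase, fell by 3.06 ± 0.68 on the log2 scale, from 38.5 to 291 normalized counts in Q175 to 3.17 to 36.9 in the double mutants. Ccl3 and Ccl4, chemokines that attract leukocytes, fell by 1.95 ± 0.37 and 1.89 ± 0.43. Csf1, a ligand of the receptor that microglia need for survival, fell by 0.60 ± 0.13, and each Q175 sample (811 to 1310 normalized counts) stood above each double mutant (590 to 760). With sex as a term in DESeq2, Ccl3 was called (adjusted p = 0.0431) and the calls of Igf1 (0.304), Mmp12 (0.121), Ccl4 (0.213) and Csf1 (0.538) were lost.

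The 11 late DAM genes that were not under 0.05 included Trem2 and Cd68. Cd68, the lysosomal glycoprotein used as a mark of phagocytic microglia, is named after its values were seen, and had a mean of 2600 normalized counts in Q175 and 2793 in the double mutants. Of the 10 early DAM genes tested 2 were lower at an unadjusted p, and 1 of them, Lyz2, was called. Lyz2, a lysozyme of myeloid cells, had 3871, 4629, 2448, 5254 and 6440 normalized counts in Q175 and 2137, 2449, 2123, 2343 and 1912 in the double mutants (-1.06 ± 0.21, DESeq2 adjusted p = 0.00399, and 0.198 with sex as a term). The double mutants lay within a narrow range, and their highest sample passed the lowest Q175 sample by 1 count, both samples being male. Each DAM list holds 1 member within 15 Mb of Tyrobp, Axl among the late genes and Apoe among the early ones, and neither was called.

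**Figure D2:**
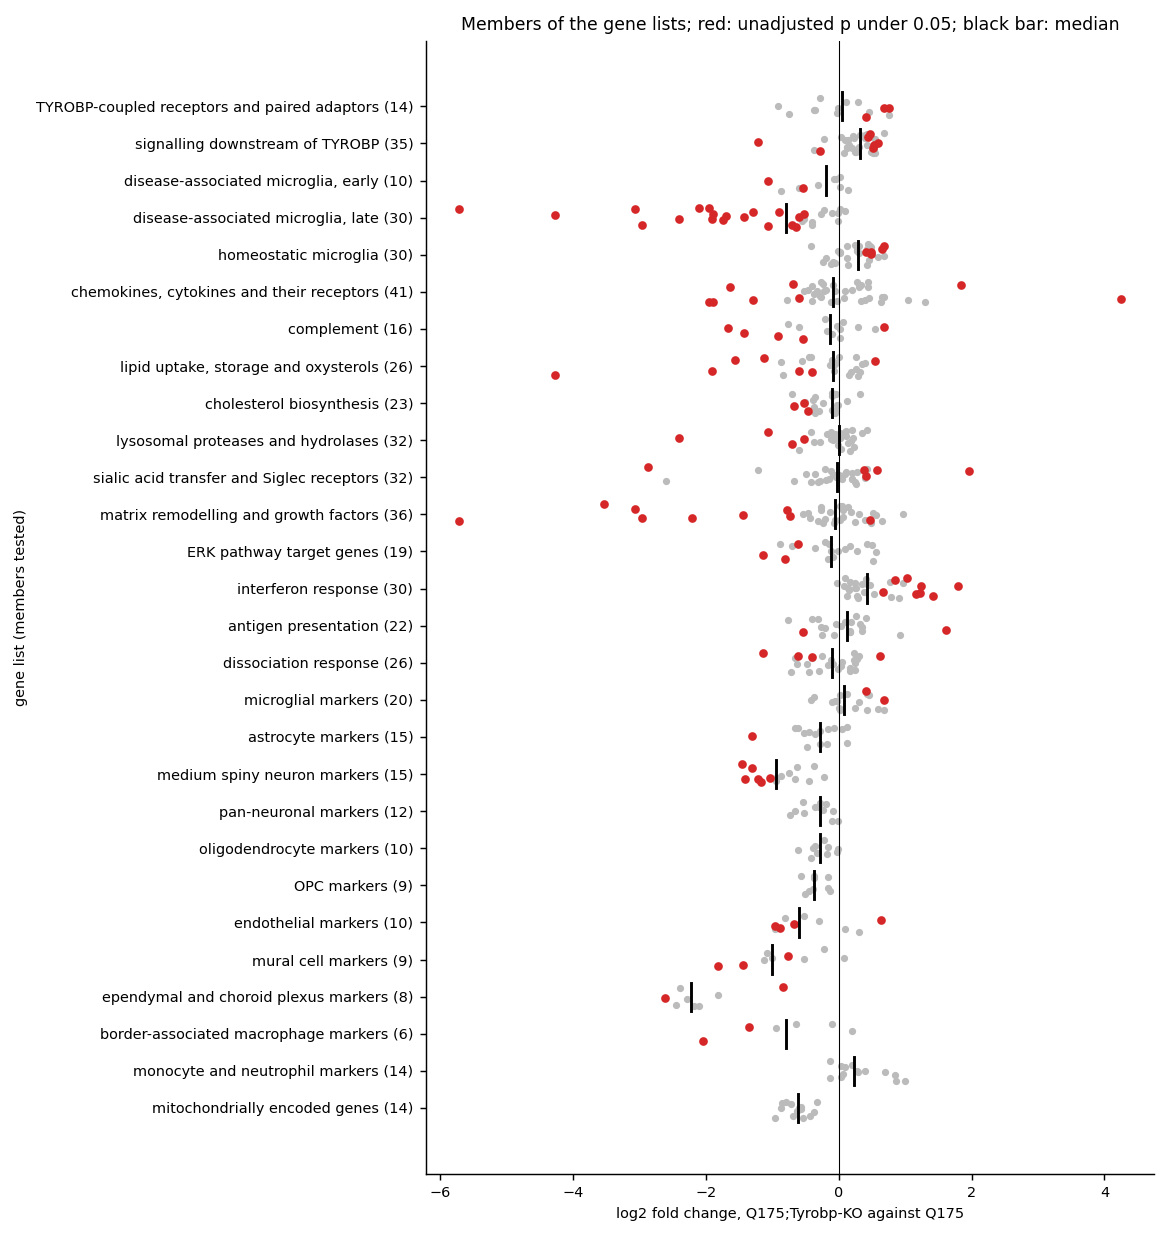
Log2 fold change of Q175;Tyrobp-KO against Q175 for the tested members of 28 gene lists; each point is a gene, red where the unadjusted edgeR p was under 0.05, and the bar is the list's median. Late DAM members reach far to the left (median -0.80) while interferon response members lie to the right (median 0.42).

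The DAM lists held 11 of the 30 called genes away from Tyrobp, and the other 19 comprised 13 that fell, St8sia6 among them, and 6 that rose. Olfm4, a secreted glycoprotein, had 151, 151, 77.1, 210 and 220 normalized counts in Q175 and 21.2, 58.1, 20.9, 53.0 and 24.5 in the double mutants (-2.21 ± 0.37, DESeq2 adjusted p = 2.58e-05). Lox, which cross-links collagen and elastin, had 23.1 to 100.1 normalized counts in Q175 and 0 to 7.82 in the double mutants (-3.54 ± 0.69). For both genes the groups did not overlap. Among genes of the matrix and of growth factors 8 of 36 were lower and 1 higher at an unadjusted p under 0.05. Rai14, Il12rb2, Erbb2, Pmaip1, Kcnj12, Olfr111, Ankrd35 and Ppp1ccb fell by 0.83 to 1.44 on the log2 scale, and none of these 8 was called by DESeq2 with sex as a term.

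The 6 genes elsewhere that rose were Gm48478, Cmya5, Gm20274, Gadl1, Ccdc162 and Gm11545, with log2 fold changes of 0.76 to 1.29. Gadl1, an enzyme that makes beta-alanine and related amines, had 49.0, 23.7, 55.6, 27.4 and 33.9 normalized counts in Q175 and 69.3, 86.8, 65.3, 96.2 and 80.6 in the double mutants. The groups did not overlap for 5 of the 6, and none of the 6 was called by DESeq2 with sex as a term. Gm20274 lies inside an intron of a gene on its own strand by its annotation class, so reads of the host transcript cannot be told apart from its own. Ppp1ccb and Gm11545 are annotated as pseudogenes whose reads may be shared with their parent genes.

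Rgs5 and Dnah6 are expressed in other cell types, and each is given beside the markers of those cells. Rgs5, a marker of pericytes, had 89.8, 110, 80.1, 179 and 78.6 normalized counts in Q175 and 61.4, 29.5, 48.2, 23.8 and 37.1 in the double mutants (-1.44 ± 0.33, DESeq2 adjusted p = 0.0182). The level of the mural cell list was 22.97 to 56.6 in Q175 and 15.1 to 27.7 in the double mutants, 3 of its 9 tested members, Rgs5 itself included, were lower at an unadjusted p under 0.05, and its part in the fall of Rgs5 was not tested. Dnah6, a dynein of motile cilia, rested on 1 library, with 293 normalized counts in Q175 replicate 4 and 4.14 to 42.3 in the other Q175 samples. Without that library its log2 fold change went from -3.07 to -1.36. The level of the ependymal and choroid plexus list was 95.1 and 120 in Q175 replicates 3 and 4, against 4.32 to 38.2 in the other 8 samples. With sex as a term DESeq2 called neither Rgs5 nor Dnah6.

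The receptors that TYROBP couples to and paired adaptors were measured for 14 of 24 listed genes, and none was called. Trem2 had 5276, 2790, 2637, 4349 and 5600 normalized counts in Q175 and 3448, 3465, 4638, 4678 and 4319 in the double mutants (-0.01 ± 0.21), and the double mutants lay inside the Q175 range. Hcst, the adaptor DAP10 whose gene lies tail to tail with Tyrobp, Itgam, the CD11b integrin chain that the beads bind, and Siglech, a sialic acid-binding receptor of microglia, were higher at an unadjusted p under 0.05, by 0.75 ± 0.30, 0.69 ± 0.29 and 0.41 ± 0.17. Itgam ran from 657 to 2464 normalized counts in Q175 and from 2113 to 3486 in the double mutants. Fcer1g, the ITAM adaptor of Fc receptors, had a mean of 4805 ± 1290 (SD) normalized counts in Q175 and 3774 ± 337 in the double mutants (-0.36 ± 0.17), and was not past the unadjusted threshold.

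Of 35 signalling genes downstream of TYROBP, 31 were higher and 4 lower, with a median log2 fold change of 0.313. At an unadjusted p under 0.05, 5 were higher and 2 lower, beside 3.45% and 4.56% of all genes, and none was called. In Tyrobp-KO against WT the list's median was 0.00436. Fgr, a SRC family kinase of myeloid cells, was lower by -1.21 ± 0.41 on the log2 scale, and Pik3r1, a regulatory subunit of phosphoinositide 3-kinase, was higher by 0.47 ± 0.19. In the ERK target list Egr1, an immediate early transcription factor, was lower by -1.13 ± 0.35, with 172 to 354 normalized counts in Q175 and 59.0 to 190 in the double mutants, so that the groups overlapped. Egr1 is also a gene that dissociation of tissue induces, and 3 of 26 dissociation genes were lower and 1 higher at an unadjusted p.

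Of 30 homeostatic genes 23 were higher, with a median of 0.29. At an unadjusted p under 0.05, 5 were higher and none lower, and none was called. The 5 were Golm1, Itgam, Siglech, Slc2a5 and Mertk. P2ry12, the purinergic receptor that steers microglial processes, is likewise named after its values were seen, and had a mean of 31090 ± 7642 normalized counts in Q175 and 31740 ± 5698 in the double mutants. With sex as a term, in females alone, with the non-microglial covariate or without double mutant replicate 13, no homeostatic gene was under 0.05. Without any 1 of Q175 replicates 4 and 14 or double mutant replicates 11 and 16, 1 was higher, without double mutant replicate 12, 2 were, and without replicate 5, 8 were.

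Interferon response genes were higher in 29 of 30 cases, 8 of them at an unadjusted p under 0.05, with a median of 0.42, and none was called. Mx1, an antiviral GTPase, had 135, 89.7, 91.9, 155 and 294 normalized counts in Q175 and 105.0, 577, 251, 670.1 and 458 in the double mutants (1.42 ± 0.45). Double mutant replicate 5 lay within the Q175 range, and the other 4 double mutants ran from 251 to 670.1. The count of members under 0.05 ran from 4 without double mutant replicate 11 to 16 without Q175 replicate 17, and was 14 without double mutant replicate 5, 5 without any 1 of Q175 replicates 4 and 9 or double mutant replicates 13 and 16, 3 with sex as a term and 0 in females alone, where 19 of 30 were higher. In Tyrobp-KO against WT the list's median was 0.47, with 4 higher and none lower at an unadjusted p.

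None of the members of the lists for complement, lysosome, cholesterol synthesis and antigen presentation was called apart from Cst7 and Lyz2 in the lysosomal list. At an unadjusted p under 0.05, complement had 4 of 16 lower, C4b by -0.91 ± 0.25, and 1 higher. Lysosomal proteases and hydrolases had 4 of 32 lower, and chemokines, cytokines and their receptors 6 of 41 lower, Ccl3, Ccl4, Il12rb2 and Csf1 called, and 2 higher, with Il12b among the higher ones at 0 to 4.08 normalized counts in Q175 and 0 to 59.0 in the double mutants. Cholesterol biosynthesis had 3 of 23 lower and none higher, with 21 of 23 negative, but 12 of 23 were positive under scaling by total counts. Antigen presentation had 1 higher and 1 lower of 22.

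Genes within 15 Mb of Tyrobp, 397 without Tyrobp itself, held 10 called genes (2.52%, against 0.17% of the genes farther away or on other chromosomes). Of these, 6 lay within 1 Mb, where 65 genes were tested. At an unadjusted p under 0.05 there were 15 of 65 genes under 1 Mb (23.1%), 10 of 108 between 1 and 5 Mb (9.26%) and 18 of 224 between 5 and 15 Mb (8.04%), beside 7.9% on other chromosomes. The 15 nearest comprised 9 higher and 6 lower genes. The count within 15 Mb went from 43 to 85 without double mutant replicate 5 and to 26 and 27 without replicates 11 and 13.

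Of the called neighbours, Zfp74, Zfp30 and Zfp14, zinc finger genes 0.36 to 0.62 Mb from Tyrobp, rose by 0.81 to 1.13. Zfp14 had 302, 391, 328, 289 and 250 normalized counts in Q175 and 708, 922, 943, 410 and 500 in the double mutants. Lgi4, a secreted protein of the leucine-rich glioma-inactivated family 0.64 Mb away, had 402, 489, 460, 574 and 313 in Q175 and 862, 728, 702, 1061 and 1037 in the double mutants (0.96 ± 0.20). The groups did not overlap for any of these 4 genes. Sbsn and the noncoding D7Ertd128e, 0.33 and 0.47 Mb away, fell by 2.15 ± 0.40 and 4.52 ± 0.79.

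Another 3 called genes sat near 13 Mb. Siglecg, an inhibitory sialic acid-binding receptor, had 42.2, 16.9, 46.7, 10.7 and 49.6 normalized counts in Q175 and 72.6, 132, 169, 164 and 123 in the double mutants (1.96 ± 0.39, DESeq2 adjusted p = 0.000407). Klk8, the secreted serine protease neuropsin, had 628, 303, 474, 576 and 733 in Q175 and 133, 228, 237, 204 and 205 in the double mutants (-1.44 ± 0.21, DESeq2 adjusted p = 3.28e-06). Neither gene overlapped between the groups. Zfp658 rose by 0.96 ± 0.20, and Siglece, beside them, was higher at an unadjusted p only (0.58 ± 0.21).

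Ryr1, a calcium release channel best known from skeletal muscle and 1.29 Mb from Tyrobp, fell by 3.70 ± 0.83. Its Q175 values were 2514, 4709, 5800, 482 and 166 normalized counts and its double mutant values 394, 162, 256, 86.5 and 181, so that the groups overlapped. Rgs9, a gene of medium spiny neurons, had 2571, 4827, 5767, 1475 and 376 in Q175 and 2258, 694, 1399, 416 and 847 in the double mutants. The level of the medium spiny neuron marker list was 425, 551, 540, 552 and 127 in Q175 and 464.5, 123.5, 204, 182 and 248 in the double mutants. The part of neuronal transcripts in the fall of Ryr1 was not tested. Hcst, which ends 127 bases from Tyrobp on the other strand, ran from 22.98 to 61.2 normalized counts in Q175 and from 42.5 to 89.3 in the double mutants. Nfkbid, an inhibitor of NF-kappa-B in the nucleus, was higher by 0.38 ± 0.17 at an unadjusted p, and Aplp1, Lrfn3, Sdhaf1 and Syne4, the other nearest genes tested, were not past that threshold. Whether a difference at these genes follows from sequence inherited with the targeted allele cannot be told apart from an effect of the deletion in this design.

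**Figure D3:**
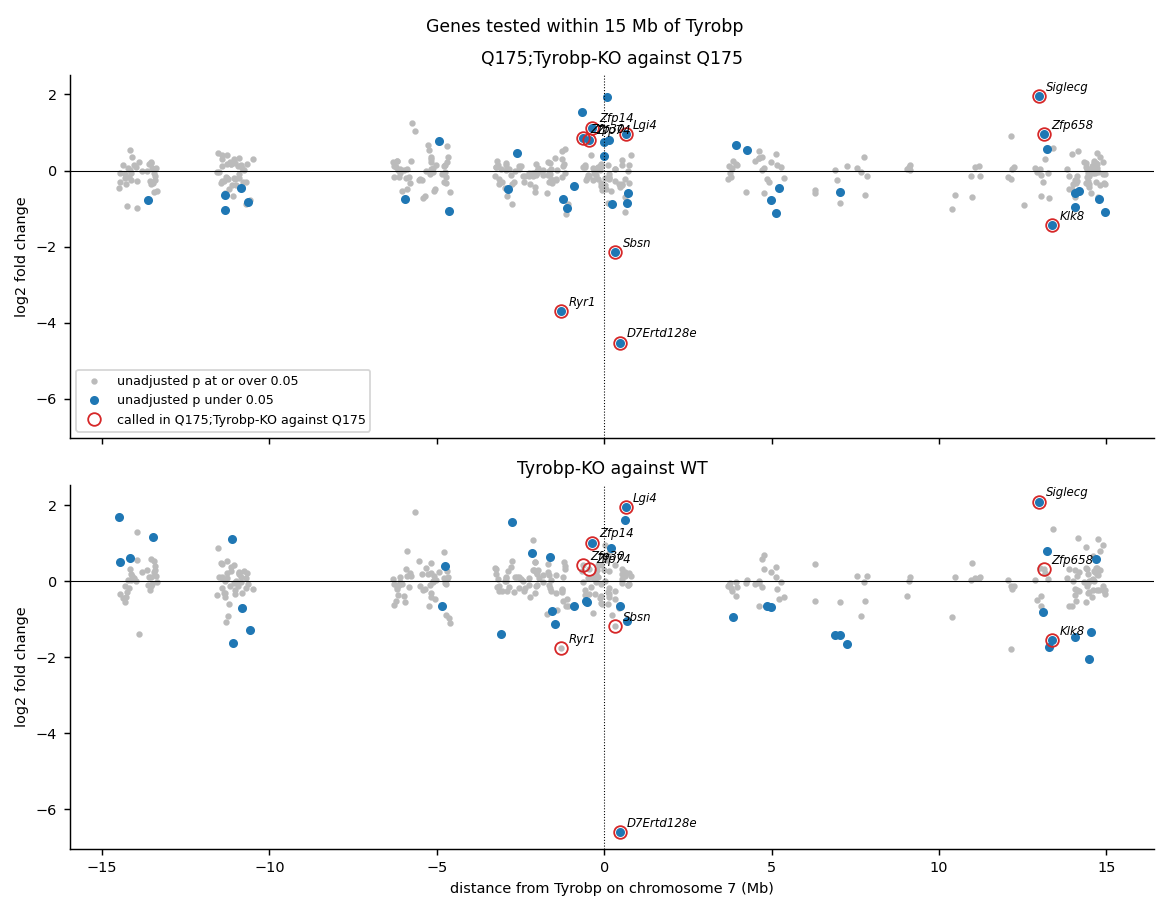
Log2 fold change of the genes tested within 15 Mb of Tyrobp against their distance from it in Mb, in Q175;Tyrobp-KO against Q175 (top) and in Tyrobp-KO against WT (bottom); blue points have an unadjusted edgeR p under 0.05 and circles mark genes called in the top comparison. All 10 circled genes have the same sign in both panels, and D7Ertd128e was listed at 0 in all 3 Tyrobp-KO samples, so its value in the bottom panel depends on the fit.

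The same deletion without the Q175 allele was examined in the 3 Tyrobp-KO and 5 WT samples. The WT group held 1 female and 4 males and the Tyrobp-KO group 2 females and 1 male, so sex and genotype were partly mixed here too. Tyrobp-KO replicate 20 scored 1.16 for non-microglial content, against -0.55 and -0.41 in the other Tyrobp-KO samples. In this comparison edgeR called 4 genes (0.0222%), Tyrobp, St8sia6, Spp1 and Clec7a, all lower, and DESeq2 called 168 (0.932%). edgeR called the same 4 without replicate 20, and all but Clec7a with sex as a term. At an unadjusted edgeR p under 0.05 there were 1228 genes (6.82%), 660 higher (3.66%) and 568 lower (3.15%), and 615 with sex as a term. All 10 called neighbours of Tyrobp had the same direction as in the double mutants, 5 of them at an unadjusted p under 0.05. Of the 30 called genes elsewhere 25 had the same direction (83.3%, beside 49.8% of all 17463 genes tested in both). The 24 that fell and the 6 that rose differed. Of the 24, 21 were lower in Tyrobp-KO too, 15 of them at an unadjusted p under 0.05 and 14 by DESeq2, and 15 without overlap between Tyrobp-KO and WT samples, beside 4.46% of the genes tested in both, with medians of -1.90 and -1.58 in the 2 comparisons. Of the 6, 4 were higher in Tyrobp-KO, none at an unadjusted p under 0.05, with medians of 0.95 and 0.19.

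**Figure D4:**
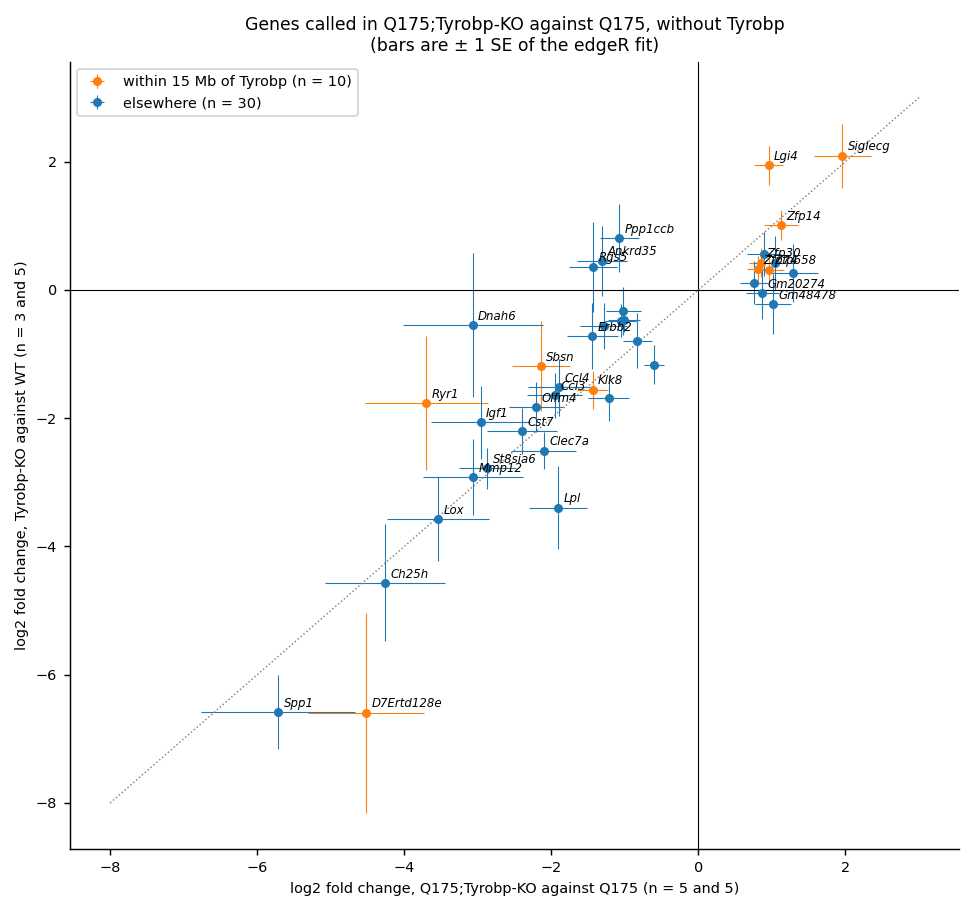
Log2 fold change in Tyrobp-KO against WT plotted against that in Q175;Tyrobp-KO against Q175 for the 40 called genes other than Tyrobp, with bars of 1 SE and a dotted line of equality. Spp1 has the lowest value on both axes among genes away from chromosome 7 (-5.715 and -6.58), and 5 genes, Rgs5, Ankrd35, Ppp1ccb, Gm48478 and Gm20274, have opposite signs.

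In the samples without Q175, late DAM genes were again the lower ones, with 13 of 30 lower and 1 higher at an unadjusted p under 0.05 and a median of -0.56. Spp1 was lower by -6.58 ± 0.58, Clec7a by -2.50 ± 0.28, Lpl by -3.40 ± 0.64 and Ch25h by -4.57 ± 0.91. Igf1 had 55.9 to 136 normalized counts in WT and 6.03 to 41.4 in Tyrobp-KO. Lyz2 was not called there (-0.48 ± 0.26). A test of the interaction, which asks whether the effect of the deletion differed with the Q175 allele, called none of 18613 genes in edgeR, with 1118 genes (6.01%) at an unadjusted p under 0.05, and 2 in DESeq2 (0.0107%). For St8sia6 the difference was -0.02 and for Spp1 0.94 on the log2 scale, with unadjusted p of 0.97 and 0.49.

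Transcripts of other striatal cells were present in each group. Medium spiny neuron markers were lower in the double mutants for all 15 genes tested, 6 at an unadjusted p under 0.05, and the list level was 425 to 552 in 4 Q175 samples and 127 in replicate 17, against 123 to 464 in the double mutants. Penk, which encodes enkephalin, and Drd2, the dopamine receptor of the indirect pathway, were lower by -1.31 ± 0.47 and -1.21 ± 0.50, and neither was called. The count of 6 became 12 without Q175 replicate 17 or double mutant replicate 5, 1 without Q175 replicate 4 or 9, 2 without double mutant replicate 11 or 13, 3 without replicate 12 or 16, and 0 in females alone. Pan-neuronal, oligodendrocyte and OPC markers held no member under 0.05, but all 12, 10 and 9 tested were lower, with medians of -0.287, -0.275 and -0.379. In the astrocyte list 12 of 15 were lower, with a median of -0.283, and only Gfap was under 0.05. Gfap was lower, with 2399 normalized counts in Q175 replicate 14, 302 to 572 in the other Q175 samples and 158 to 572 in the double mutants. Endothelial markers had 3 of 10 lower, Slco1a4, Flt1 and Esam, and 1 higher, Pecam1, which leukocytes also express, and the list level was 37.1 to 55.0 in Q175 and 27.1 to 45.7 in the double mutants. In these bulk samples fewer cells of a type and less RNA per cell cannot be told apart.

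**Figure D5:**
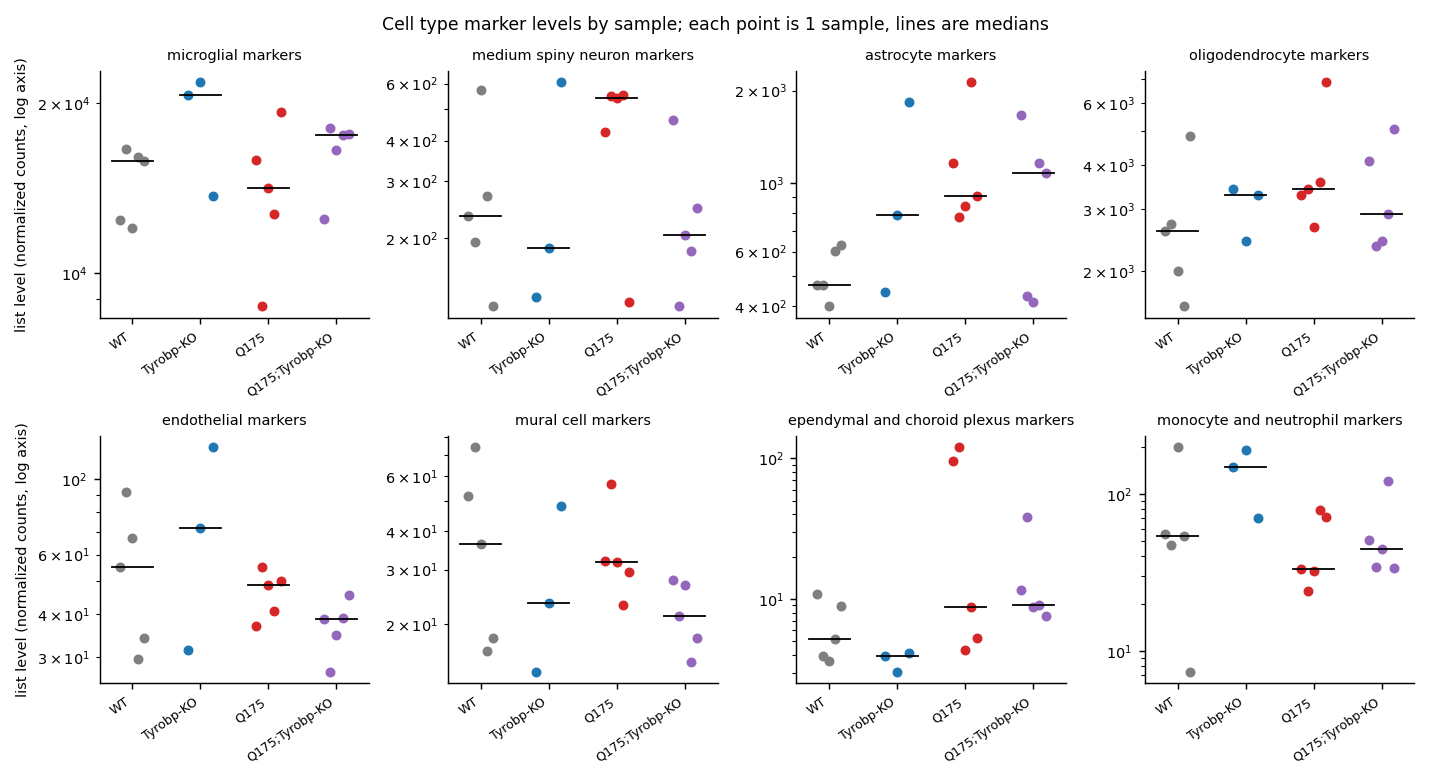
Level of 8 marker lists, the geometric mean of normalized counts plus 1, in each sample of the 4 genotypes on log axes; points are samples and lines are medians. Microglial markers lie between 8722 and 19330 in Q175 and 12480 and 18100 in the double mutants, and ependymal and choroid plexus markers reach 120 in 1 Q175 sample.

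Q175 replicate 17, which had the highest Spp1, Clec7a, Lpl and Igf1, had the lowest medium spiny neuron level of its group, and whether that level bears on these genes was not tested. Monocyte and neutrophil markers held no member under 0.05 and only 3 of 14 lymphocyte markers were tested. Border-associated macrophage markers had 2 of 6 lower, Cd163 and Ms4a7, and a list level of 12.5 to 58.0 in Q175 and 14.5 to 25.5 in the double mutants. Mitochondrially encoded genes were lower in all 14 cases with none under 0.05. For mt-Co1, mt-Cytb and mt-Rnr1, Q175 replicate 14 stood above every other sample of both groups. At mt-Co1 that sample had 873100 normalized counts, against 119100 to 233300 in the other Q175 samples and 80110 to 291200 in the double mutants. None of 8 Y-linked genes tested was under 0.05, although Q175 held 1 male and the double mutants 3. Each group held both sexes, so this result cannot show that sex made no difference.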

How the data were processed

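Striatal microglia of adult C57BL/6 mice were isolated with CD11b beads, and SMART-Seq v4 cDNA, which keeps no strand, was sequenced. The authors deposited raw read counts per gene made with STAR and featureCounts. The methods name GRCm38 and the submitters' processing notes GRCh38, a human build; all 55536 identifiers matched the mouse annotation GENCODE M21 on GRCm38, which gave positions. Of the deposited columns, 2 match no sample described in the labels and were not used. Sample groups came from the genotype labels.

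Genes that reached 1 CPM in any of the samples compared entered edgeR 4.0.16 in R 4.3.3 (TMM factors, quasi-likelihood test, Benjamini-Hochberg adjustment, FDR 0.1), with DESeq2 1.42.0 as the alternative. Standard errors are the log2 fold change divided by the square root of F. Levels are counts scaled by TMM factors over all 18 samples. List levels are geometric means of these counts plus 1. The scripts were tested on simulated data. Non-microglial content was scored from astrocyte, pan-neuronal and oligodendrocyte markers. The text names Tyrobp, called genes and the 10 genes per direction with the smallest edgeR p where a result turns on them. It also names list members at an unadjusted p under 0.05 (up to 6 per list). TYROBP receptors, paired adaptors and the 3 tested genes nearest to Tyrobp on each side are named too. The members and gene lists were chosen with earlier results of these data known. Group depths were 11260410 to 29771983 reads, and low counts limit precision.

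Alternatives changed the test, scaling, filter, FDR, samples in the fit, dispersion, sex or score term, and left out each sample in turn. DESeq2 with a sex or score term, and without each sample, was added after the data were seen.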

Additional observations from a re-analysis of the deposited data

Results flagged for a closer look

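Among the called genes, 6 of 123 groups of 5 samples held a sample that stood apart from the rest by Dixon's test, about as many as the 1 in 20 that chance gives. These were Spp1 in double mutant replicate 5 (69.3 normalized counts), Ch25h in double mutant replicate 16 (15.8), Dnah6 in Q175 replicate 4 (293), and, in WT samples, Ryr1 in replicate 6 (5690), D7Ertd128e in replicate 8 (32.3) and Ccl3 in replicate 1 (664).

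For 10 of the 41 called genes edgeR's interaction test gave an unadjusted p under 0.05, beside 6.01% of all 18613 genes, and none passed the adjusted threshold. The 41 were picked by the difference between double mutants and Q175, which is part of the interaction. That choice favours small p-values among them, so the 10 are not evidence that the effect of the deletion depends on Q175. The difference, given as the effect on the Q175 background minus that without it, on the log2 scale, was -1.74 for Rgs5, -1.71 for Ankrd35, -1.82 for Ppp1ccb and -0.92 for Lgi4. It was 0.50 for Zfp30, 0.56 for Zfp74, 0.72 for Zfp658, 0.999 for Gm20274, 1.56 for Lpl and 1.32 for Gm48478. DESeq2 called 2 genes in the interaction, Tmc3 at 4.01 (adjusted p = 0.00143) and Ccbe1 at -6.73 (adjusted p = 0.0347), and edgeR called neither.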

How the results depend on the processing

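The 2 genes that edgeR called became 41 with DESeq2, 14 in 1 fit over all 4 groups, 9 with no filter on low counts, 27 and 18 with DESeq2 and the non-microglial score or sex as a term, and 1 with either term in edgeR, in females alone or at an FDR of 0.05. Leaving out 1 sample gave 1 to 5 genes in edgeR and 24 to 583 in DESeq2, and 26 to 85 genes under an unadjusted p of 0.05 within 15 Mb of Tyrobp. In Tyrobp-KO against WT the 4 genes became 168 with DESeq2, 15 with no filter, 8 in the fit over all groups and 3 with sex as a term. Leaving out 1 sample there gave 2 to 8. The interaction gave 0 genes in edgeR and 2 in DESeq2. The causes were not tested.

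The log2 fold changes of the 41 called genes kept their sign in all 1311 alternative values. Among 77 other named genes, 3 changed sign in 18 of 2457 values: Syne4 (0.11) and Sdhaf1 (-0.018) in females alone, and Trem2 under total count scaling (0.12), with a term for sex (0.11) or the score (0.037), with no filter (0.00276), with DESeq2 and sex (0.11) or the score (0.044), and without Q175 replicate 3 (0.10 in edgeR and in DESeq2), 14 (0.0014 and 0.012) or 17 (0.10 and 0.10) or double mutant replicate 5 (0.018 and 0.037) or 11 (0.056 and 0.058), its lowest value without 1 sample being -0.141 without Q175 replicate 9. List medians moved by less than the spread between samples in 573 of 580 values. The OPC median became 0.0702 in females alone, the mural median ran from -1.19 to -0.37 without 1 sample, -0.37 being without Q175 replicate 4, and the median of 3 lymphocyte genes became 0.245 with filterByExpr, 0.196 with the score, 0.0761 in females alone, 0.34 with sex and 0.23 to 1.57 without 1 sample. No paired analysis was possible because no replicate number is shared between the groups compared. Males alone, with 1 Q175 male, were not fitted.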
